A study of Mus musculus with 24 samples.

Results

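KLRG1+ Treg cells (kTreg) of old mice were compared with activated Treg cells (aTreg) sorted from the spleens of the same old mice. All genes with a normalized value of at least 10 in at least 4 of the 8 libraries entered the comparison, which kept 14808 of the 17464 listed genes. The mice of both groups were WT C57BL/6JRccHsd animals of 26 months, with no transgene and no treatment. The labels give aTreg cells as CD62L- CD44+ and kTreg cells as KLRG1+. Each of the 4 old mice gave 1 library of each subset. The whole series holds 24 bulk RNA-seq libraries in 6 groups, with resting Treg cells (rTreg, CD62L+ CD44-) as the third subset and 4 young mice of 2 months as the second age. The values are reads per gene divided by 1 size factor per library, so levels can be set side by side between libraries but not between genes of different length.

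Treg cells are CD4+ T cells that carry the transcription factor FOXP3 and hold immune responses in check. KLRG1 is a lectin-like inhibitory receptor of antigen-experienced T cells and natural killer (NK) cells, and on Treg cells it is known as a mark of terminal differentiation. ST2, the product of *Il1rl1*, is the receptor for the alarmin IL-33. It signals through MYD88, and in Treg cells of barrier and adipose tissue it is known to go with GATA3 and with the release of amphiregulin.

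The 8 libraries held between 15045747 and 25154160 reads on listed genes, and 419 to 914 genes stood at 0 in a library. The aTreg library of replicate 2 stood apart. Its correlation with the other aTreg libraries over log2 values was 0.957 to 0.969, against 0.979 to 0.982 among those. Its *Foxp3* value was 5079, against 16925, 18346 and 19813 in the aTreg libraries of replicates 1, 3 and 4, so the counts of the main lists are also given without mouse 2. The T cell genes *Cd3d*, *Cd3e*, *Cd3g* and *Cd4* were present at 11928 or more in all 8 libraries and none of them passed the test. *Cd3d* was at 15239 to 21131 in the aTreg and 11928 to 16119.6 in the kTreg libraries (log2 fold change −0.35, adjusted p = 0.14). *Cd3e* was at 20049.7 to 22641 in the aTreg and 16761 to 19778 in the kTreg libraries (−0.21, adjusted p = 0.16). *Cd3g* was at 25071 to 34261 in the aTreg and 20028 to 24189.8 in the kTreg libraries (−0.37, adjusted p = 0.095), and *Cd4* at 13708 to 16985 in the aTreg and 13775 to 16210.4 in the kTreg libraries (−0.06, adjusted p = 0.69).

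The levels of several marker lists of other cell types differed between the groups. Of 11 macrophage and monocyte markers 9 could be tested, and 7 of them were higher and 1 lower in kTreg libraries. Their summed level was 1061 to 2168 in the old aTreg, 2843 to 4478 in the old kTreg and 11403 to 28393 in the old rTreg libraries, so the 3 subsets did not overlap. Markers of conventional CD4 T cells (7 of 7 tested genes, among them *Cd40lg*, *Il2* and *Ifng*) were all lower in kTreg libraries, with a summed level of 6712 to 14591 in aTreg and 2268 to 3880 in kTreg libraries. The NK list had 3 genes higher and 2 lower of 8, with sums of 3489 to 7288 in aTreg and 2991 to 4213 in kTreg libraries. The plasma cell list had 2 genes higher and 0 lower of 5, with sums of 23020 to 59484 and 48582 to 89480, and the B cell list had 1 gene higher of 4, with sums of 595 to 1170 and 1164 to 2013. *Ebf1* of the B cell list was at 0 in all 8 libraries. Neutrophil markers reached 1486 and 1229 in the kTreg libraries of replicates 2 and 3, against at most 272 in the other 6 libraries. In a bulk library fewer cells of a type and less RNA per cell cannot be told apart, and the part of other cells in the results below was not tested.

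**Figure D1:**
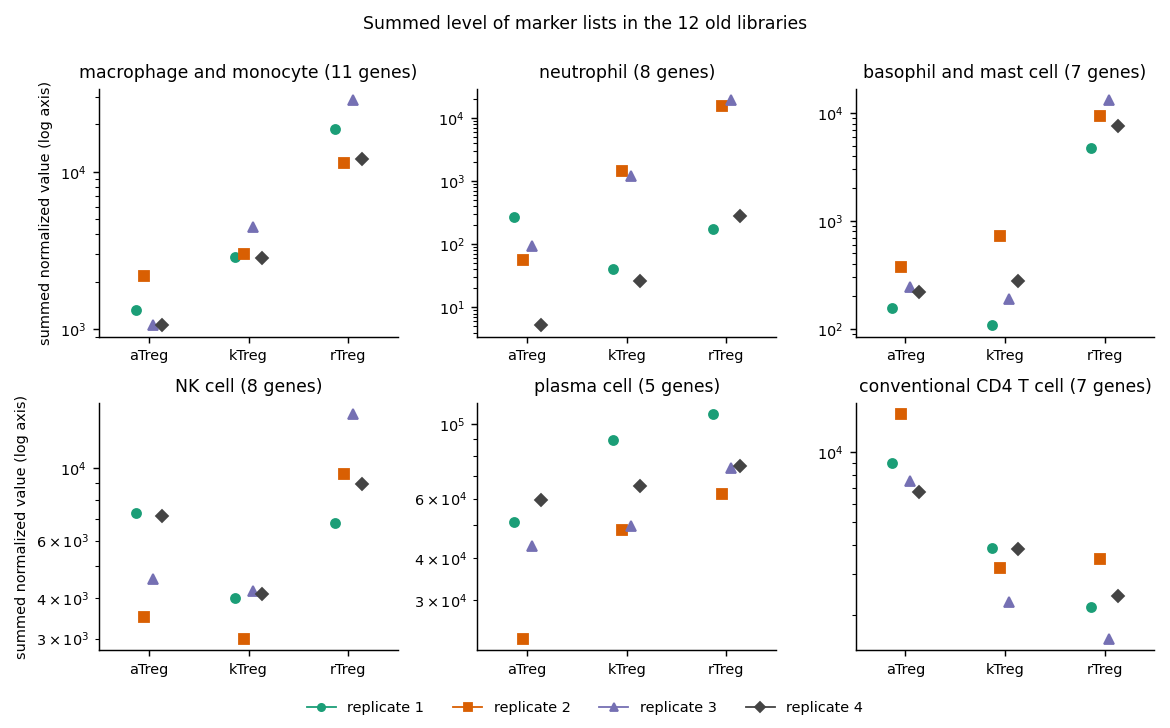
Summed normalized value of 6 marker lists (vertical log axes) in the 12 old libraries, by subset, with 1 symbol per mouse. The macrophage and monocyte sum rises from aTreg (1061 to 2168) over kTreg (2843 to 4478) to rTreg libraries (11403 to 28393), and the conventional CD4 T cell sum is highest in the aTreg libraries.

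Between the paired libraries 808 genes were higher and 462 lower in old kTreg than in old aTreg cells (limma with the mouse as a block, p after Benjamini-Hochberg adjustment below 0.05, and more than a 1.5-fold difference). That is 8.58% of the genes tested, 5.46% higher and 3.12% lower, and each list below is read against these shares. Of the genes called, 807 of 808 were higher and 462 of 462 lower in all 4 mice. The calls were made on the same 4 mice, so this agreement follows largely from the selection and is no separate support. The same holds for ranges of the 2 subsets that did not overlap, which are given below for named genes as descriptions. The share of all genes without such overlap is not reported here. More than 4-fold differences were found for 169 higher and 111 lower genes, and the median log2 fold change of all genes was 0.01. Among the genes called higher, 41 were under 10 in every aTreg and at 10 or more in every kTreg library, so they passed the filter through the kTreg cells alone. In turn, 10 of the lower genes passed it through the aTreg cells alone. Without mouse 2 the test called 709 genes higher (4.79% of the genes tested) and 433 lower (2.92%), 7.71% in all, and 1011 genes were called the same way in both fits. The counts fell to 287 higher and 208 lower without mouse 1, 443 and 237 without mouse 3, and 475 and 300 without mouse 4. Among the 136 genes named here for their call in this comparison, 4 (*Il6*, *Dscaml1*, *Tnfrsf21* and *Ogdhl*) were under 10 in every library of 1 subset. Others, such as *Csf1r*, *Chil3*, *Ccl6*, *Il17a*, *Elavl2*, *Kcnc2* and 4833412C05Rik, reached 10 in only 1 library of their lower subset, and *Il5* hardly passed 10 in its lower subset. These too passed the filter through the subset where they were high, so their p-values are to be read as descriptions. Of the 136 genes, 92 were called without mouse 1, 126 without mouse 2, 99 without mouse 3 and 111 without mouse 4. All kept their direction in these fits, which the choice of genes by their call on the same mice made nearly certain. The calls of 85 were made in all 4 fits.

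**Figure D2:**
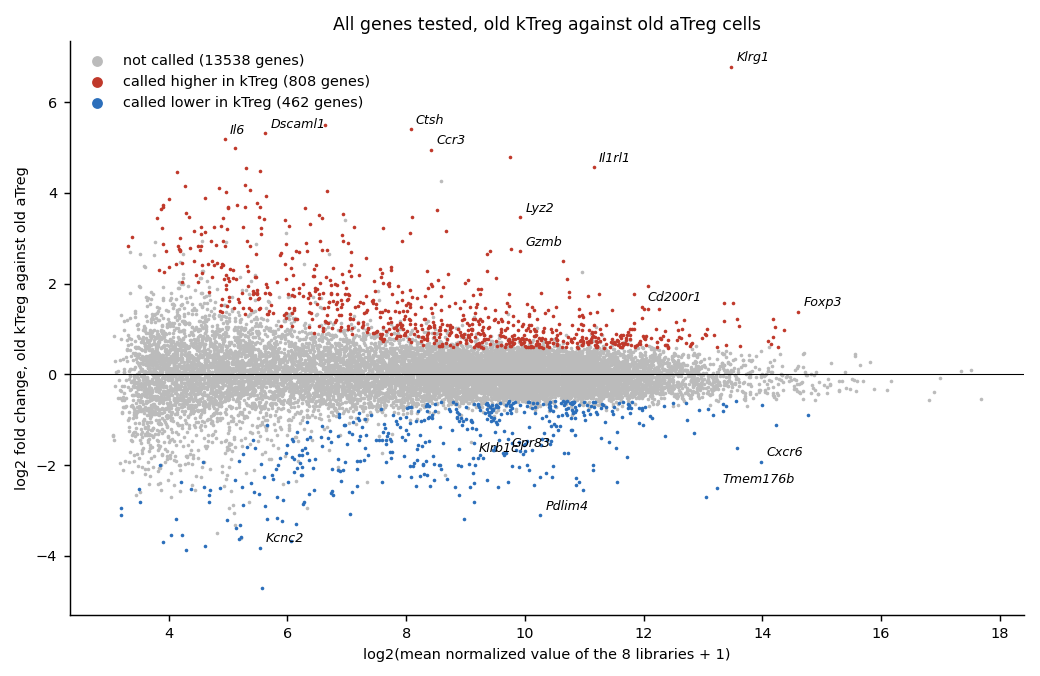
Log2 fold change of old kTreg against old aTreg cells (vertical axis) over the log2 mean normalized value of the 8 libraries (horizontal axis) for the 14808 genes tested, red for the 808 genes called higher and blue for the 462 called lower. *Klrg1* stands highest at 6.78, and *Cxcr6* and *Tmem176b* are among the most abundant of the lower genes.

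*Klrg1* (ENSMUSG00000030114, chr6:122246981-122259914 of GRCm39, minus strand) was the gene the cells were sorted on. Its values were 156, 160.1, 238 and 258 in the aTreg libraries of replicates 1 to 4 and 16559, 21309.6, 32088 and 20012 in the kTreg libraries (log2 fold change 6.78). Other sorting markers are not findings either. *Cd44* was at 4896 to 6441 in the aTreg and 5138 to 6049.8 in the kTreg libraries and *Il2ra*, which encodes CD25, at 2901 to 4558 in the aTreg and 4588 to 5709 in the kTreg libraries, and neither passed the test (adjusted p = 0.86 and 0.081, limma).

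*Il1rl1* (chr1:40468730-40504575 of GRCm39, plus strand) was the most strongly changed gene after *Klrg1* by p-value. Its values were 164, 139, 257 and 185 in aTreg and 3355, 5579, 4395 and 4222 in kTreg libraries (log2 fold change 4.57 ± 0.195 (SE), adjusted p = 4.5e-05). Every kTreg library was above every aTreg library. The old rTreg libraries lay between them, at 629 to 1249. RefSeq gives *Il1rl1* 2 start sites on GRCm38.p6, and the windows from 250 bases before to 50 after each start are printed here beside those of *Klrb1c* and *Cxcr6*, the 2 lower genes with the smallest p-values, since these genes lead the comparison. Capitals mark the letters AGATAA (bound by GATA factors), AGGTCA (a half-site of nuclear receptors), TGANTCA (AP-1) and TTCAAAG (TCF and LEF factors) on either strand. The marked runs do not overlap.
Il1rl1 first start, chr1:40429320-40429619, plus strand: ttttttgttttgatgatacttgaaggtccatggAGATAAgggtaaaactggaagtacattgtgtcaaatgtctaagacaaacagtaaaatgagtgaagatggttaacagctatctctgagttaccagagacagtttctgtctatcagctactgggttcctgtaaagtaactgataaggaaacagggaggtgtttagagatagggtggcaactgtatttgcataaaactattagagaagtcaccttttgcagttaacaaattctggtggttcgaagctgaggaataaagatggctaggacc
Il1rl1 second start, chr1:40439379-40439678, plus strand: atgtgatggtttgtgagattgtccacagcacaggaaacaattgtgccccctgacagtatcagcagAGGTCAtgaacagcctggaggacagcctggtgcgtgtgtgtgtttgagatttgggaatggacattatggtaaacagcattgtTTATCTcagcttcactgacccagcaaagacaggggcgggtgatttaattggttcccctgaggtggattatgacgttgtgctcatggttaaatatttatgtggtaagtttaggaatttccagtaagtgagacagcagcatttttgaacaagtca
Klrb1c, chr6:128788592-128788891, minus strand: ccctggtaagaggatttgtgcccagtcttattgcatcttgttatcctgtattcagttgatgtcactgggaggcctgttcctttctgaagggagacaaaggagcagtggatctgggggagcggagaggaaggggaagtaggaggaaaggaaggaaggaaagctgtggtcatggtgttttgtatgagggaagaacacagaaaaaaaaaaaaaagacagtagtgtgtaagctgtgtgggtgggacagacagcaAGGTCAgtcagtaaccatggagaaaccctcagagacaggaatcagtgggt
Cxcr6, chr9:123806227-123806526, plus strand: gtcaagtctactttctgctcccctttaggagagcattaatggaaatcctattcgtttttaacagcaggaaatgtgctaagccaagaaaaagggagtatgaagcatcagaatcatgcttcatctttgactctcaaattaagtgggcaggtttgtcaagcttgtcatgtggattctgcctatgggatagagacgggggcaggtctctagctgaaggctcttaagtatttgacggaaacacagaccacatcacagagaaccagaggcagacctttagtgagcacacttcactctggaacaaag
AGATAA or its reverse complement occurred in 1 place in each *Il1rl1* window, and AGGTCA in 1 place in the second *Il1rl1* window and in the *Klrb1c* window. The *Cxcr6* window held none of the 4 motifs. Over the 9937 tested genes with a window (the first listed start of each), AGATAA was in 6.43%, against 7.67% of 600 called higher and 6.33% of 332 called lower. AGGTCA was in 12.3% of all, 14.5% of the higher and 17.5% of the lower genes, TGANTCA in 4.83%, 6.33% and 9.34%, and TTCAAAG in 3.69%, 2.17% and 6.02%. These shares are descriptions of letters, and no binding was measured.

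Several genes that define Treg cells were higher in kTreg cells. Of 18 genes of this list 8 were called higher, 1 lower and 9 not called, with a median log2 fold change of 0.73 (0.01 over all genes). Without mouse 2 the calls were 8 and 1, and the median was 0.42. *Foxp3*, the factor that sets the lineage, stood at 16925, 5079, 18346 and 19813 in aTreg and 32111, 34841, 34365 and 37793 in kTreg libraries (log2 fold change 1.38 ± 0.291 (SE), adjusted p = 0.025), and all kTreg libraries were above all aTreg libraries. Its log2 fold change was 0.92 without mouse 2, whose aTreg library held the lowest value. *Ctla4*, the inhibitory receptor that competes with CD28 for its ligands, was at 6765, 3128, 8321 and 8745 and 13016, 13965, 15428 and 14267 (log2 fold change 1.17 ± 0.217 (SE), adjusted p = 0.017), without overlap. The TNF receptor family members *Tnfrsf18* (GITR) and *Tnfrsf4* (OX40), both costimulatory on Treg cells, had log2 fold changes of 0.82, adjusted p = 0.008, and 0.98, adjusted p = 0.012. *Entpd1*, which encodes the ectonucleotidase CD39, was at 376 to 1215 in the aTreg and 1596 to 2079 in the kTreg libraries (1.000, adjusted p = 0.04). The Ikaros family factors *Ikzf2* and *Ikzf4* had log2 fold changes of 1.19, adjusted p = 0.022, and 1.10, adjusted p = 0.036. The orphan receptor *Gpr83* went the other way, at 1474, 481, 1406 and 1516 in aTreg and 782, 158, 190.4 and 526 in kTreg libraries (log2 fold change −1.73 ± 0.277 (SE), adjusted p = 0.01). Its ranges overlapped across mice, though each mouse had less in its kTreg cells. With 1 mouse left out, the test no longer called *Foxp3* (replicate 1), *Ikzf2* (replicate 3), *Ikzf4* (replicates 1, 3 and 4) and *Entpd1* (replicates 1 and 3), by adjusted p or by fold, and brackets give here and below the mouse left out. The adjusted p of these ran from 0.054 to 0.085.

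Around ST2, 8 of 20 genes of the ST2 axis and of tissue Treg cells were higher and 2 lower, at a median of 0.68, and 8 and 0 without mouse 2, at a median of 0.45. *Gata3*, the transcription factor shared with T helper 2 cells, was at 3823, 4919, 4039.5 and 3593 in aTreg and 6365, 9415, 9245 and 7535 in kTreg libraries (log2 fold change 0.98 ± 0.108 (SE), adjusted p = 0.0036). No kTreg library fell to the level of an aTreg library. *Ahr*, a ligand-activated transcription factor, was at 629.6, 449, 767 and 626 and 1417, 1558, 1555 and 1592 (log2 fold change 1.33 ± 0.151 (SE), adjusted p = 0.0042), also without overlap. *Prdm1*, which encodes BLIMP1, differed by a log2 fold change of 1.27, adjusted p = 0.031. Among the secreted products, *Areg* (amphiregulin, a factor of tissue repair) was at 238, 179, 242 and 344 in aTreg and 513, 1061, 724 and 526 in kTreg libraries (log2 fold change 1.47 ± 0.285 (SE), adjusted p = 0.019). *Il10*, an anti-inflammatory cytokine, was at 176, 81.6, 187 and 204 and 389.8, 590.2, 514 and 297 (log2 fold change 1.49 ± 0.332 (SE), adjusted p = 0.029). Both were higher in every kTreg library than in any aTreg library. *Ebi3* (a chain of IL-35 and IL-27) differed by a log2 fold change of 1.22, adjusted p = 0.0066, and *Fgl2*, a secreted fibrinogen-like suppressor, one of 1.441, adjusted p = 0.016. The 2 lower genes were *Myd88*, the adaptor of ST2 and Toll-like receptors (−0.60, adjusted p = 0.027), and *Id2*, an inhibitor of E proteins (−0.59, adjusted p = 0.047). The call was lost without the mouse in brackets for *Prdm1* (replicates 1 and 3), *Areg* (replicates 1 and 3), *Il10* (replicates 1 and 3), *Myd88* (replicates 1, 2 and 3) and *Id2* (replicates 1, 2, 3 and 4). These fits gave adjusted p of 0.0099 to 0.2.

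**Figure D3:**
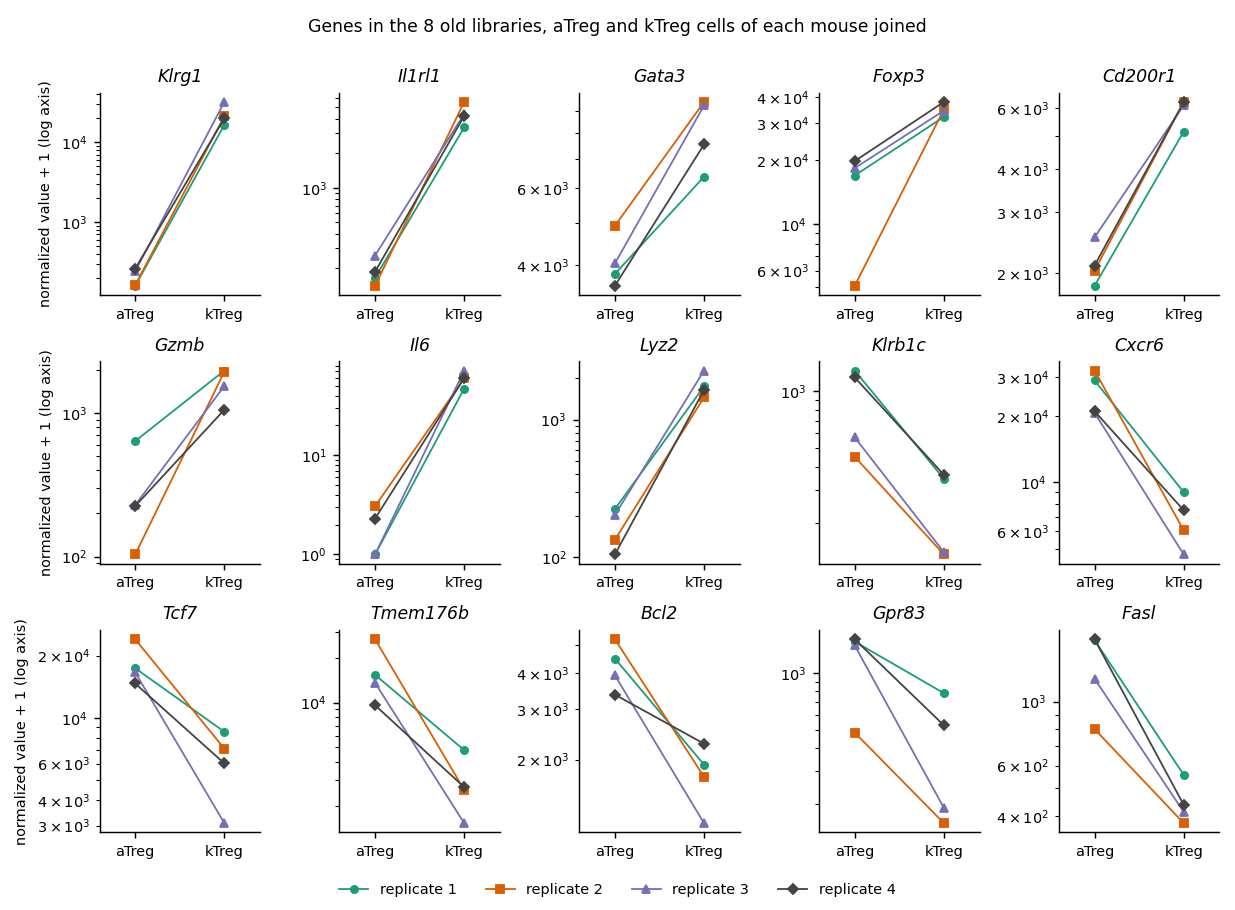
Normalized value plus 1 (vertical log axes) of 15 genes in old aTreg and old kTreg libraries, with the 2 libraries of each mouse joined by a line. *Klrg1*, *Il1rl1*, *Gata3*, *Foxp3*, *Cd200r1*, *Gzmb*, *Il6* and *Lyz2* are higher and *Klrb1c*, *Cxcr6*, *Tcf7*, *Tmem176b*, *Bcl2*, *Gpr83* and *Fasl* lower in the kTreg cells of all 4 mice, and the aTreg library of replicate 2 is low in *Foxp3* and high in *Tmem176b* and *Tcf7*.

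Among the other genes with the smallest p-values, several encode receptors or enzymes. *Cd200r1*, an inhibitory receptor for CD200, was at 1834, 2029.9, 2536 and 2100.4 in aTreg and 5139.7, 6255, 6125 and 6266 in kTreg libraries (log2 fold change 1.49 ± 0.105 (SE), adjusted p = 0.00078). *Hpgd*, the enzyme that degrades prostaglandin E2, was at 58.1, 31.0, 44.1 and 48.2 and 557, 400.1, 467 and 587 (log2 fold change 3.46 ± 0.197 (SE), adjusted p = 0.00024), about an order of magnitude apart in each mouse. *Penk*, the precursor of the enkephalin peptides, was at 5143, 4275, 6326 and 8122 and 16225, 16328, 18344 and 18379 (log2 fold change 1.58 ± 0.129 (SE), adjusted p = 0.0015), which placed it among the most abundant of the higher genes. The lysosomal protease *Ctsh* was at 16.4, 5.17, 11.8 and 13.01 and 328, 506, 832 and 435 (log2 fold change 5.40 ± 0.375 (SE), adjusted p = 0.00078). *Frmd5* (log2 fold change 3.62, adjusted p = 0.00078), *Myadm* (1.88, adjusted p = 0.0018), 1700061F12Rik (3.30, adjusted p = 0.0021) and the cell adhesion gene *Dscaml1* (5.31) completed the group, and their ranges in the 2 subsets did not overlap. *Dscaml1* was near 0 in aTreg cells, at 0, 1.03, 3.15 and 2.60, against 77.5, 73.0, 132 and 95.8 in kTreg cells. It passed the filter through the kTreg libraries alone, so its difference is given as a description, and at such low values the fold depends on the pseudocount of 1. *Hpgd* was at 48.4, 1373, 41.9 and 0 in the young kTreg libraries of replicates 1 to 4. The macrophage and monocyte markers also summed highest in that of replicate 2, at 45344. In the old rTreg libraries *Hpgd* was at 9.37 to 151. The part of other cells in its call was not tested.

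A second set of leading genes is known from macrophages and monocytes. *Lyz2*, which encodes lysozyme, was at 224, 133, 202 and 104 in aTreg and 1739, 1453, 2268 and 1641 in kTreg libraries (log2 fold change 3.46 ± 0.179 (SE), adjusted p = 0.00015). *Csf1r*, the receptor for M-CSF, was at 9.09, 8.26, 15.7 and 7.81 and 140.4, 139.7, 325 and 156 (log2 fold change 4.04 ± 0.296 (SE), adjusted p = 0.00093). *Tyrobp*, the signalling adaptor DAP12, was at 14.5, 10.3, 17.3 and 13.01 and 121, 152, 241 and 167 (log2 fold change 3.51 ± 0.298 (SE), adjusted p = 0.0018). The chitinase-like *Chil3* was at 27.3, 1.03, 1.57 and 0 and 90.1, 331, 254 and 80.1 (log2 fold change 5.50, adjusted p = 0.0092), and the chemokine *Ccl6* at 7.27, 9.30, 24.4 and 6.51 and 84.9, 65.8, 167 and 147 (3.27, adjusted p = 0.0047). In the old rTreg libraries, where the summed macrophage and monocyte markers were also highest, these 5 genes stood at 9381 to 25153 for *Lyz2*, 143 to 747 for *Csf1r*, 904 to 4699 for *Tyrobp*, 485 to 4229 for *Chil3* and 1916 to 9345 for *Ccl6*. *Ctsh* was at 128 to 366 in the old rTreg libraries, against 328 to 832 in the old kTreg libraries. In the young aTreg library of replicate 2 it was at 587, against 6.06 to 11.1 in those of replicates 1, 3 and 4. *Lyz2* and *Csf1r* were at 2232 and 278 in that library. In the young kTreg libraries of replicates 1 to 4, *Ctsh* was at 493, 1481, 470 and 666. There *Lyz2* was at 568, 6805, 145 and 0, and *Csf1r* at 78.5, 7542, 280 and 0. The log2 fold change in young mice was 4.81 for *Ctsh*, −0.20 for *Lyz2* and 3.27 for *Csf1r*. The part of macrophage or monocyte RNA in these calls was not tested. *Csf1r*, *Chil3* and *Ccl6* reached 10 in only 1 aTreg library, so their p-values are to be read as descriptions.

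The cytotoxic genes split. Of 15 granule and effector genes 4 were higher and 4 lower, at a median of −0.43 (−0.33 without mouse 2, with 4 and 4 calls). The higher genes included 3 granzymes. *Gzma* was at 34.5, 14.5, 12.6 and 13.01 in aTreg and 222, 171, 134 and 365 in kTreg libraries (log2 fold change 3.54 ± 0.362 (SE), adjusted p = 0.0033). *Gzmb* was at 637, 102, 227 and 224 and 1978, 1948, 1546 and 1055 (log2 fold change 2.72 ± 0.356 (SE), adjusted p = 0.0058), and *Gzmc* differed by a log2 fold change of 2.33, adjusted p = 0.017. The tested granzymes *Gzmk* and *Gzmm* did not pass (log2 fold changes 0.99, adjusted p = 0.16, and 0.66, adjusted p = 0.19). *Prf1*, the pore-forming perforin, had one of 0.97, adjusted p = 0.038. On the lower side, *Fasl*, the death ligand, was at 1634, 802, 1199 and 1644 and 555, 378, 413 and 437 (log2 fold change −1.52 ± 0.157 (SE), adjusted p = 0.0033), without overlap, and *Ctsw* (cathepsin W) and *Nkg7* had log2 fold changes of −1.01, adjusted p = 0.0064, and −0.62, adjusted p = 0.029. The granzyme genes have near-identical neighbours in the mouse genome, so reads may have been split among them by the authors' counting. Not called without the mouse in brackets were *Prf1* (replicates 1, 3 and 4) and *Nkg7* (replicates 1 and 4). The adjusted p there was 0.062 to 0.15.

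Several killer lectin-like receptors were lower in kTreg cells. Of 12 tested, 6 were called lower, 5 were not called, and the only one called higher was *Klrg1* itself, on which the cells were sorted, and the median was −1.55 (−1.30 without mouse 2, with 1 and 6 calls). *Klrb1c*, which encodes NK1.1, was at 1288, 450.4, 571 and 1186 in aTreg and 344, 136, 139.9 and 361 in kTreg libraries (log2 fold change −1.84 ± 0.145 (SE), adjusted p = 0.0014), and the ranges did not overlap. *Klrk1*, the activating receptor NKG2D, was at 2481, 3569, 1149 and 1228 and 549, 679, 111 and 702 (log2 fold change −2.18 ± 0.335 (SE), adjusted p = 0.009). *Klrb1f* and the inhibitory receptor *Klrc1* (NKG2A) had log2 fold changes of −1.996, adjusted p = 0.0045, and −2.02, adjusted p = 0.012. *Cd160*, a receptor of NK and T cells, was at 1012, 527, 852 and 1331 and 322, 129.8, 351 and 303 (log2 fold change −1.77 ± 0.177 (SE), adjusted p = 0.0031). The T cell receptor gamma constant gene *Trgc1*, which belongs to a family of similar genes, was at 4377, 2646, 2763 and 2903 and 1246, 435, 349 and 694 (log2 fold change −2.36 ± 0.190 (SE), adjusted p = 0.0014), without overlap. Lectin-like receptors also form a family of similar sequences, and the treatment of reads shared within it is not stated. Without the bracketed mouse the test did not call *Klrc1* (replicate 1). Adjusted p was then 0.057.

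Chemokine receptors moved both ways, with 6 higher and 6 lower of 17 (median 0.55, and 5 and 6 without mouse 2 at a median of 0.21). *Cxcr6*, a homing receptor of resident T cells, was the most abundant of those named, at 28941, 32065, 20659 and 21000.0 in aTreg and 9016, 6062, 4709.6 and 7471 in kTreg libraries (log2 fold change −1.93 ± 0.152 (SE), adjusted p = 0.0014). *Ccr7*, which directs T cells to lymph nodes, was at 4938, 7383, 4263 and 4172 and 2540.0, 1388, 757 and 1591 (log2 fold change −1.81 ± 0.247 (SE), adjusted p = 0.0062). Both lower receptors had ranges that did not overlap. *Ccr6* differed by a log2 fold change of −1.41, adjusted p = 0.026. Of the 6 higher receptors, the following 4 were at low levels in aTreg cells. *Ccr3*, the eotaxin receptor, was at 31.8, 4.13, 47.2 and 18.2 and 351, 742, 971 and 564 (log2 fold change 4.95 ± 0.522 (SE), adjusted p = 0.0033). *Ccr10*, a skin-homing receptor, was at 20.9, 28.9, 63.7 and 39.04 and 496, 256, 417 and 236 (log2 fold change 3.22 ± 0.338 (SE), adjusted p = 0.0033). *Ccr1* was at 19.6 to 79.5 in the aTreg and 148 to 304 in the kTreg libraries (2.69, adjusted p = 0.0061) and *Cx3cr1* at 10.3 to 26.03 in the aTreg and 25.7 to 110.3 in the kTreg libraries (2.14, adjusted p = 0.018). *Ccr1* and *Cx3cr1* are also known from monocytes. The other higher receptors, *Cxcr4* and *Ccrl2*, averaged 305 and 469 in the aTreg and 515 and 1183 in the kTreg libraries (log2 fold changes 0.79, adjusted p = 0.037, and 1.38, adjusted p = 0.022). Both were named after their values were seen. Leaving out the mouse in brackets ended the call of *Ccr6* (replicates 1 and 3), *Cx3cr1* (replicates 1 and 4), *Cxcr4* (replicates 1, 2, 3 and 4) and *Ccrl2* (replicate 3). These fits gave adjusted p of 0.024 to 0.1.

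Of 18 integrin genes 5 were higher and 0 lower (median 0.57, and 5 and 1 without mouse 2 at a median of 0.48). *Itgae*, which encodes CD103, the integrin that binds E-cadherin on epithelial cells, was at 5586, 2207, 7821 and 7170.5 in aTreg and 15030.5, 15469, 15808 and 14778 in kTreg libraries (log2 fold change 1.57 ± 0.268 (SE), adjusted p = 0.012). The kTreg libraries lay close together and above all aTreg libraries. *Itgad*, known from macrophages, was at 2.07 to 23.6 in the aTreg and 35.1 to 192 in the kTreg libraries (3.21, adjusted p = 0.0047). *Itga2b*, known from platelets, was at 22.7 to 40.3 in the aTreg and 60.4 to 224 in the kTreg libraries (1.73, adjusted p = 0.019). *Itga3* and *Itgav* had log2 fold changes of 0.91, adjusted p = 0.03, and 0.79, adjusted p = 0.044. The call was lost without the mouse in brackets for *Itga2b* (replicate 1), *Itga3* (replicates 1, 3 and 4) and *Itgav* (replicates 1, 2, 3 and 4). The adjusted p there was 0.011 to 0.11.

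Of 39 cytokine and chemokine genes 12 were higher and 12 lower (median 0.34, and 12 and 12 without mouse 2 at a median of 0.23). *Il6*, a pro-inflammatory cytokine, was at 0, 2.07, 0 and 1.30 in aTreg and 46.1, 58.6, 70.4 and 59.1 in kTreg libraries (log2 fold change 5.18). It is one of the genes that passed the filter through the kTreg libraries alone, so its difference is a description, with no test. With 3 reads over the aTreg and 228 over the kTreg libraries, the ratio of levels was 80.5, with an exact 95% interval of 27.2 to 393 that covers counting error only. The old rTreg libraries held more *Il6* than either, 131 to 454. *Il5*, a T helper 2 cytokine, was at 0 to 10.3 in the aTreg and 26.7 to 51.2 in the kTreg libraries (3.16, adjusted p = 0.02). It passed the filter through the kTreg libraries, so its p-value is to be read as a description. *Il18* was at 40.0 to 76.8 in the aTreg and 139 to 200.9 in the kTreg libraries (1.61, adjusted p = 0.0086), and the macrophage growth factor *Csf1* at 259 to 824 in the aTreg and 1436 to 1793 in the kTreg libraries (1.42, adjusted p = 0.012). The chemokines *Ccl3* and *Cxcl2* had log2 fold changes of 1.991, adjusted p = 0.012, and 2.37, adjusted p = 0.013. On the lower side were the interleukin-17 genes *Il17a*, at 62.7, 46.5, 88.9 and 53.4 and 16.8, 0, 8.57 and 7.88 (−3.31, adjusted p = 0.017), and *Il17f*, at 62.7, 154, 191 and 68.97 and 0, 45.1, 8.57 and 30.2 (−3.31, adjusted p = 0.03). *Il2*, which Treg cells consume rather than make, was at 59.1, 332, 99.2 and 79.4 and 39.8, 42.4, 17.1 and 15.8 (−2.06, adjusted p = 0.021), highest in the aTreg library of replicate 2. *Lta* (lymphotoxin), *Tnfsf14* (LIGHT), *Xcl1* and *Ifng* had log2 fold changes of −1.15, adjusted p = 0.0051, of −1.60, adjusted p = 0.0082, of −1.79, adjusted p = 0.006, and of −0.91, adjusted p = 0.014. Not called without the mouse in brackets were *Il5* (replicates 1, 3 and 4), *Il17a* (replicate 3), *Il17f* (replicates 1 and 3), *Il2* (replicates 3 and 4) and *Ifng* (replicates 1 and 4). Adjusted p was then 0.052 to 0.081.

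A set of genes known from interleukin-17-producing T cells was lower in kTreg cells. It was put together after the values were seen and therefore carries no test: all 12 of its genes were called lower, at log2 fold changes with a median of −2.45. *Il17re*, a chain of the receptor for IL-17C, was at 3398, 5502, 3053 and 1745 in aTreg and 966, 618, 247 and 561 in kTreg libraries (log2 fold change −2.56 ± 0.313 (SE), adjusted p = 0.0049). The membrane protein gene *Tmem176b* was at 15402, 26729.9, 13603 and 9614 and 4787, 2582, 1542 and 2695 (log2 fold change −2.51 ± 0.275 (SE), adjusted p = 0.0036). Both were highest in the aTreg library of replicate 2, the one with little *Foxp3*, and both were still called without mouse 2 (adjusted p = 0.0015 and 0.00045). *Cd40lg*, the CD40 ligand of helper T cells, was at 4208, 6568, 3923 and 3325 and 1539, 1608, 904 and 1772 (log2 fold change −1.63 ± 0.195 (SE), adjusted p = 0.0047). The summed conventional CD4 T cell markers were also higher in the aTreg libraries, as given above, and their part in these calls was not tested. Among 20 lineage transcription factors 2 were higher and 2 lower (median 0.14, and 1 and 2 without mouse 2), *Tbx21*, which encodes T-BET, being among the lower (−0.65, adjusted p = 0.029). Without the bracketed mouse the test did not call *Tbx21* (replicates 1, 3 and 4). These fits gave adjusted p of 0.086 to 0.12.

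Of 17 genes of resting and memory-like T cells tested, 8 were called lower, 1 higher and 8 not called (median −0.69, and 9 and 1 without mouse 2 at −0.71). *Tcf7*, which encodes the stemness factor TCF1, was at 17377, 24003, 16579 and 14652 in aTreg and 8547, 7078, 3083 and 6003 in kTreg libraries (log2 fold change −1.62 ± 0.204 (SE), adjusted p = 0.0051), and no kTreg library reached the lowest aTreg library. *Satb1*, a chromatin organizer, and *Ssbp2* had log2 fold changes of −0.87, adjusted p = 0.0064, and −0.95, adjusted p = 0.0061. In the list of follicular Treg cells, which help to limit germinal centres, 5 of 14 genes were lower and 2 higher (median −0.44, and 4 and 1 without mouse 2 at −0.44). *Cxcr5*, the receptor that leads cells into follicles, was at 2057, 799, 2854 and 2948 and 1015, 582, 836 and 947 (log2 fold change −1.22 ± 0.211 (SE), adjusted p = 0.013), with an overlap only through the aTreg library of replicate 2. *Sostdc1*, *Btla* and *Il21* had log2 fold changes of −1.76, adjusted p = 0.0091, of −0.73, adjusted p = 0.013, and of −1.02, adjusted p = 0.033. *Pdcd1*, which encodes PD-1, was higher instead (0.87, adjusted p = 0.022). Leaving out the mouse in brackets ended the call of *Btla* (replicates 1 and 3), *Il21* (replicates 3 and 4) and *Pdcd1* (replicate 1). The adjusted p there was 0.051 to 0.12.

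The other lower genes with the smallest p-values had no list of their own. *Pdlim4*, a gene for a cytoskeletal adaptor, was at 1221, 7010.2, 519 and 176 in aTreg and 299.7, 457, 49.5 and 19.7 in kTreg libraries (log2 fold change −3.10 ± 0.282 (SE), adjusted p = 0.0023). The aTreg library of replicate 2 held most of it, and within each mouse the kTreg library held less. *Ly6g5b* (log2 fold change −2.47, adjusted p = 0.0023), the lipid receptor *Gpr18* (−1.42, adjusted p = 0.0031), the tetraspanin *Cd9* (−1.73, adjusted p = 0.0033), the sialyltransferase *St6galnac1* (−2.49, adjusted p = 0.0033), the Tec family kinase *Txk* (−1.22, adjusted p = 0.0033) and *Gm36347* (−2.48, adjusted p = 0.0033) were lower in all 4 mice. By size, the lowest were 4833412C05Rik, at 57.3 to 168 in the aTreg and 0 to 12.6 in the kTreg libraries (−4.72, adjusted p = 0.0058), *Elavl2* at 13.6 to 42.4 in the aTreg and 0 to 10.5 in the kTreg libraries (−3.87, adjusted p = 0.02), *Kcnc2* at 25.4 to 173 in the aTreg and 0 to 26.1 in the kTreg libraries (−3.82, adjusted p = 0.016) and *Ogdhl* at 11.02 to 147 in the aTreg and 0 to 7.21 in the kTreg libraries (−3.78), all from low levels. *Ogdhl* passed the filter through the aTreg libraries alone and is given as a description. 4833412C05Rik, *Elavl2* and *Kcnc2* reached 10 in only 1 kTreg library, so their p-values are to be read as descriptions. The call was lost without the mouse in brackets for *Elavl2* (replicate 3). Adjusted p was then 0.062.

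In the TNF receptor superfamily 7 of 21 genes were higher and 3 lower (median 0.26, and 7 and 2 without mouse 2). *Tnfrsf1b*, the TNF receptor that supports Treg cells, was at 12134, 5912, 14177 and 14386 in aTreg and 26052, 27490.0, 24858 and 24069.6 in kTreg libraries (log2 fold change 1.22 ± 0.223 (SE), adjusted p = 0.016), without overlap. *Tnfrsf8* (CD30) and *Tnfrsf13b* (TACI) had log2 fold changes of 1.72, adjusted p = 0.008, and of 1.11, adjusted p = 0.0092. *Tnfrsf21*, which passed the filter through the kTreg libraries alone, was at 0 to 4.72 in the aTreg and 13.1 to 46.9 in the kTreg libraries, a description with no test. Of 21 inhibitory and costimulatory receptors 6 were higher and 5 lower (median 0.08, with the same counts without mouse 2). *Havcr2*, which encodes TIM3, was at 119.9, 30.0, 146 and 137 and 328, 354, 353 and 391 (log2 fold change 1.94 ± 0.363 (SE), adjusted p = 0.017), while the costimulatory receptors *Cd28* and *Cd226* were lower (−0.77, adjusted p = 0.0058, and −0.91, adjusted p = 0.0061). Not called without the mouse in brackets was *Tnfrsf1b* (replicate 1). That fit gave adjusted p of 0.054.

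Genes of cell survival and of the cell cycle were followed because the study asks whether kTreg cells carry features of senescence. In the BCL2 family 4 of 16 genes were higher and 4 lower (median −0.09, and 3 and 3 without mouse 2). The anti-apoptotic *Bcl2* was at 4480.1, 5224, 3918 and 3358 in aTreg and 1919, 1742, 1202 and 2268 in kTreg libraries (log2 fold change −1.27 ± 0.181 (SE), adjusted p = 0.007). The equally anti-apoptotic *Bcl2l1* (BCL-XL) was at 1263, 904, 1191 and 928 and 2263, 1976, 2268 and 1606 (log2 fold change 0.92 ± 0.114 (SE), adjusted p = 0.005). These 2 genes thus differed in opposite directions, each without overlap. The pro-apoptotic *Bid* and *Pmaip1* were higher (0.99, adjusted p = 0.026, and 0.86, adjusted p = 0.025), and *Bik* and *Bcl2a1a*, which has near-identical copies, lower (−1.96, adjusted p = 0.0094, and −1.31, adjusted p = 0.018). Without the bracketed mouse the test did not call *Bid* (replicates 1 and 3), *Pmaip1* (replicates 1, 3 and 4) and *Bcl2a1a* (replicates 3 and 4). The adjusted p there was 0.051 to 0.075.

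*Cdkn1a*, which encodes the cell cycle inhibitor p21, was at 232, 488, 207 and 165 in aTreg and 266, 497, 267 and 173 in kTreg libraries (log2 fold change 0.16 ± 0.164 (SE), adjusted p = 0.53), with overlapping ranges and the highest value of each subset in replicate 2. Of 15 cyclin-dependent kinase inhibitors and retinoblastoma family genes 3 were higher and 0 lower (median 0.11, with the same counts without mouse 2). They were *Cdkn1c*, at 8.26 to 42.9 in the aTreg and 65.0 to 177 in the kTreg libraries (1.77, adjusted p = 0.032), *Rbl2*, which encodes p130, at 3607 to 5607 in the aTreg and 7250.1 to 7874 in the kTreg libraries (0.75, adjusted p = 0.01), and the stress gene *Gadd45b* (0.93, adjusted p = 0.032). Of 31 p53 targets 5 were higher and 0 lower (median 0.26, and 4 and 0 without mouse 2), among them *Aifm2* (1.10, adjusted p = 0.018) and *Sesn2* (0.88, adjusted p = 0.039). Of 50 proliferation genes 12 were higher and 0 lower at a median of 0.53, and 23 and 0 at 0.66 without mouse 2. *Mki67*, which encodes the proliferation antigen Ki-67, was at 278, 459, 372 and 362 and 532, 1204, 1012 and 572 (log2 fold change 1.11 ± 0.171 (SE), adjusted p = 0.0092). *Ccnb1*, which encodes cyclin B1, was at 319.5 to 384 in the aTreg and 574 to 843 in the kTreg libraries (1.11, adjusted p = 0.009). *Cdc25b*, *Top2a* and *Bub1b* had log2 fold changes of 0.76, adjusted p = 0.0094, of 0.61, adjusted p = 0.019, and of 0.92, adjusted p = 0.02. Leaving out the mouse in brackets ended the call of *Cdkn1c* (replicates 1 and 3), *Gadd45b* (replicates 1 and 3), *Aifm2* (replicate 1), *Sesn2* (replicates 1, 3 and 4), *Cdc25b* (replicate 1), *Top2a* (replicates 1, 3 and 4) and *Bub1b* (replicates 1 and 3). Adjusted p was then 0.051 to 0.12.

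**Figure D4:**
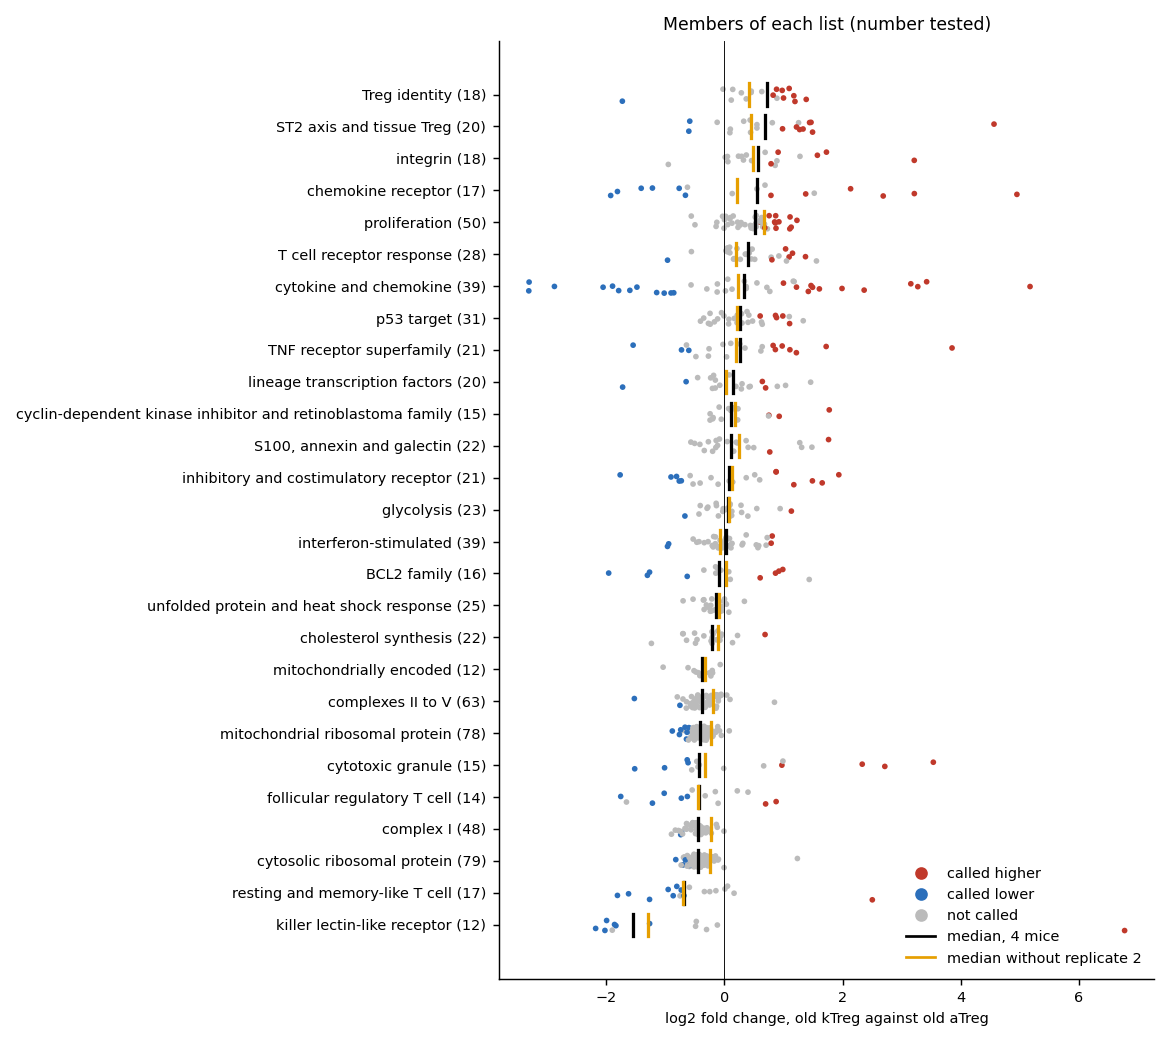
Log2 fold change of old kTreg against old aTreg cells (horizontal axis) for the members of 27 gene lists (vertical axis, number tested in brackets), 1 point per gene, with the median of the 4 mice in black and the median without replicate 2 in orange. With all 4 mice the Treg identity list has the highest median, 0.73, and the killer lectin-like receptors the lowest, −1.55. Without replicate 2 the Treg identity median is 0.42, below proliferation (0.66), integrin (0.48) and the ST2 axis (0.45). The mitochondrial and ribosomal lists lie slightly below 0 with few genes called.

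The medians of the mitochondrial lists lay below 0 with few single genes past the test. The median was −0.44 over 48 complex I genes (0 higher, 2 lower), −0.38 over 63 genes of complexes II to V (0 and 2), −0.42 over 78 mitochondrial ribosomal proteins (0 and 7) and −0.38 over 12 mitochondrially encoded genes (0 and 0), against 0.01 over all genes. Without mouse 2 the medians were −0.22, −0.19, −0.23 and −0.33, and 0, 1, 2 and 0 genes were called lower. Within mice the median difference of the complex I genes was −0.31, −1.11, −0.05 and −0.31 in replicates 1 to 4. For the mitochondrially encoded genes it was −0.64, −0.86, −0.46 and 0.17, so mouse 4 went the other way. The cytosolic ribosomal proteins shifted by as much, with a median of −0.46 over 79 genes (0 higher, 4 lower) and −0.25 without mouse 2 (0 and 0). *Cox10*, needed to build the haem of complex IV, stood out at 1949.8, 3282, 1542 and 1473 in aTreg and 791, 649.7, 590.3 and 693 in kTreg libraries (log2 fold change −1.53 ± 0.198 (SE), adjusted p = 0.0058), without overlap. *Ndufa12* and *Ndufb3* of complex I had log2 fold changes of −0.74, adjusted p = 0.043, and −0.73, adjusted p = 0.049. *Mrps5*, *Mrps28* and *Mrpl23* were at −0.76, adjusted p = 0.017, at −0.88, adjusted p = 0.034, and at −0.74, adjusted p = 0.035, and *Rpl21* at −0.66, adjusted p = 0.034. The call was lost without the mouse in brackets for *Ndufa12* (replicates 1, 2, 3 and 4), *Ndufb3* (replicates 1, 2, 3 and 4), *Mrps5* (replicates 1 and 4), *Mrps28* (replicates 1, 3 and 4), *Mrpl23* (replicates 1, 2, 3 and 4) and *Rpl21* (replicates 1, 2 and 4). These fits gave adjusted p of 0.0091 to 0.15.

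Of 28 genes that respond to T cell receptor signals 5 were higher and 1 lower (median 0.39, and 4 and 1 without mouse 2 at 0.20). *Nr4a1*, an early gene of receptor signalling, was at 1020.3, 1009, 1557 and 1425 in aTreg and 2186, 4616, 2605 and 1814 in kTreg libraries (log2 fold change 1.10 ± 0.258 (SE), adjusted p = 0.035). The phosphatase *Dusp1* was at 11438, 13390.3, 12168 and 11292 and 15633, 39704, 28192 and 21227 (log2 fold change 1.04 ± 0.167 (SE), adjusted p = 0.01). Both were highest in the kTreg library of replicate 2. *Dusp5* and *Tnfaip3*, which encodes A20, were also higher (1.37, adjusted p = 0.0037, and 1.15, adjusted p = 0.015), and *Dusp6* lower (−0.96, adjusted p = 0.0096). *Myc* was at 2665, 2589.8, 1864 and 1849 and 1855, 1438, 1072 and 1758, a difference of −0.56, adjusted p = 0.049, which did not reach a fold of 1.5. Not called without the mouse in brackets was *Nr4a1* (replicates 1 and 3). The adjusted p there was 0.06 to 0.11.

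The remaining lists held calls near the background share. Among 39 interferon-stimulated genes 2 were higher and 2 lower (median 0.02), for example *Gbp3* (0.81, adjusted p = 0.026) and *Slfn1* (−0.95, adjusted p = 0.0094). Of 23 glycolysis genes 1 was higher, the glucose transporter *Slc2a3* (1.133, adjusted p = 0.027), and 1 lower, *Eno1* (−0.67, adjusted p = 0.028), at a median of 0.06. Of 22 S100, annexin and galectin genes 2 were higher, *Lgals3* (1.76, adjusted p = 0.0096) and *Anxa4* (0.77, adjusted p = 0.012). The 22 cholesterol synthesis genes had a median of −0.21. Of 25 genes of the unfolded protein and heat shock response 0 passed the test, at a median of −0.14. Without the bracketed mouse the test did not call *Gbp3* (replicates 1, 2, 3 and 4), *Slc2a3* (replicate 1), *Eno1* (replicates 1, 2, 3 and 4) and *Anxa4* (replicate 1). Adjusted p was then 0.0017 to 0.084.

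Whether the difference between the subsets depended on age was tested over the 16 aTreg and kTreg libraries of old and young mice. Of 15229 genes 1 was called (0.00657%), at an adjusted p close to the threshold, and 1772 had an unadjusted p below 0.05. It was *Igf2r*, the receptor that carries lysosomal enzymes and clears IGF2 (chr17:12901293-12988614 of GRCm39, minus strand). In young mice it was at 3356, 4385, 3343 and 3693 in aTreg and 791, 1109, 1055 and 1041 in kTreg libraries, and in old mice at 1186, 819, 1738 and 1641 and 1272, 1251, 1613 and 1490.0. The young subsets were thus apart and the old subsets overlapped (difference of the log2 fold changes 2.005 ± 0.199 (SE), adjusted p = 0.0499). The call was lost without any one of old mice 1, 3 and 4 or of young mice 1 to 3, with 0 genes called in each of these fits, whereas 153 genes were called without young mouse 4. The young kTreg library of replicate 4 had 4913 genes at 0, against 642 to 1192 in those of replicates 1 to 3. In the young kTreg library of replicate 2 the macrophage and monocyte markers summed to 45344, against 857 to 1801 in replicates 1, 3 and 4. The part of these 2 libraries in the low number of calls was not tested. edgeR called 1 gene and DESeq2 320. In all, 23 genes had an adjusted p below 0.1, 18 of them with a lower log2 fold change in old mice. The chemokine receptor *Ccr2* was at 1311 to 2515 in young aTreg and 6347 to 8844 in young kTreg libraries, and at 2651 to 7233 and 4069 to 6689.6 in old ones (difference −2.09, adjusted p = 0.064). *Rap1gap2* (−4.35), the leukotriene receptor *Ltb4r1* (−1.83) and *Appl2* (−2.30) had the same adjusted p, and the membrane protein gene *Itm2a* differed by 1.91 (adjusted p = 0.089). The other genes of smallest p were *Fbxo27* (−2.82, adjusted p = 0.064), *Rcbtb2* (−0.995, adjusted p = 0.064), *Evl* (1.08, adjusted p = 0.089), 1110032F04Rik (1.98, adjusted p = 0.089), *Mdn1* (1.26, adjusted p = 0.11) and the sphingosine-1-phosphate receptor gene *S1pr3* (5.33, adjusted p = 0.089), which was at most 15.2 in the 8 old libraries and entered the test through the young ones. In each of *Igf2r*, *Ccr2*, *Rap1gap2*, *Ltb4r1*, *Appl2* and *Itm2a* no old aTreg library lay within the range of the young aTreg libraries. For *Il1rl1* the difference was −0.02 ± 0.300 (adjusted p = 0.98), with 175 to 243 in young aTreg and 3991 to 5859 in young kTreg libraries.

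**Figure D5:**
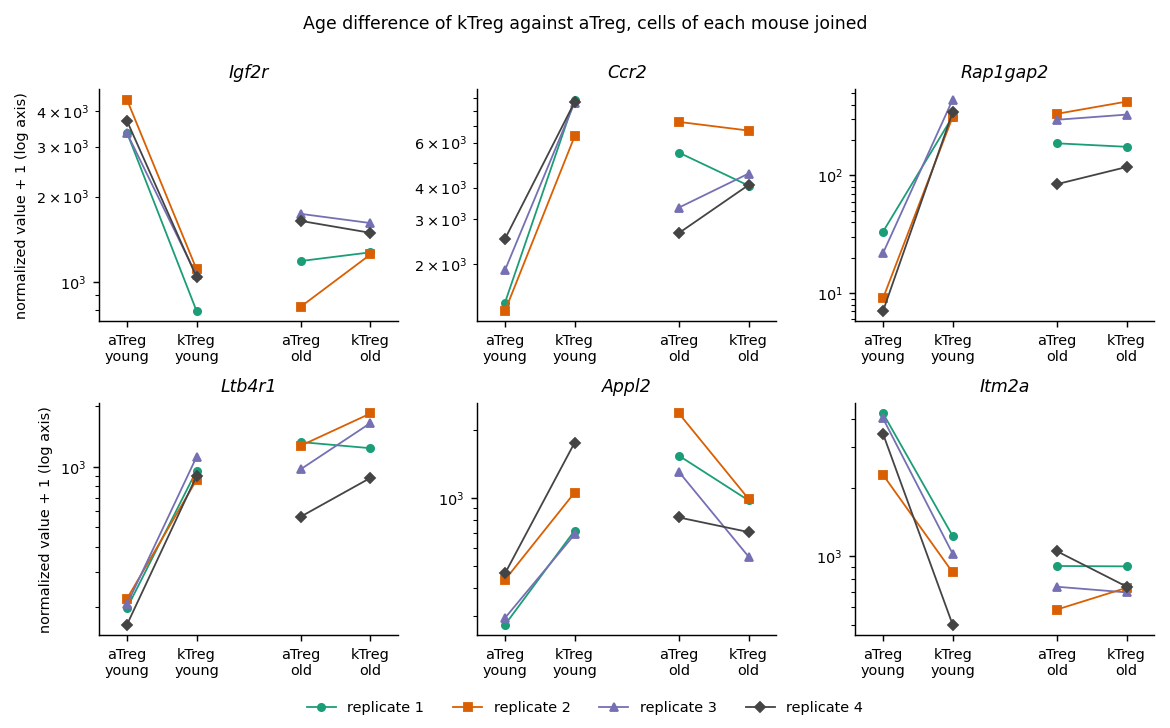
Normalized value plus 1 (vertical log axes) of 6 genes in aTreg and kTreg libraries of young mice (left pair) and old mice (right pair), with the 2 libraries of each mouse joined. The lines of the 4 young mice are steep, and the old subsets overlap in all 6 genes.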

How the data were processed

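The authors made cDNA from sorted cells with the SMART-Seq v4 kit, aligned paired-end reads to GRCm39 with HISAT2 2.2.1, counted them per gene with HTSeq 1.99.2 and normalized with DESeq2 1.44.0. The deposited values are a signal, namely the reads of a gene over the size factor of its library, kept for genes whose reads over all 24 libraries sum to 100 or more. The strand setting and the treatment of reads shared by similar genes are not given in the sources used here, so overlapping, antisense and near-identical genes cannot be told apart. Whole reads were recovered within 0.001 for 100% of values. Of the identifiers, 17353 of 17464 had a symbol in GENCODE M39 (GRCm39).

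Genes that reached 10 in 4 or more of the 8 libraries were tested on log2(value + 1) with limma 3.58.1 (R 4.3.3), using its trend option and the mouse as a block. Adjusted p-values (Benjamini-Hochberg) below 0.05 with a fold above 1.5 were called. The design text gives all subsets as taken from the same animals, and libraries that share a replicate number in the labels were treated as 1 mouse. The deviations of the libraries of a mouse from the group means correlated at 0.164, 0.104, 0.110 and 0.189, against −0.095 to 0.023 between mice. An exact sign-flip test of 4 pairs cannot go below p = 0.125, so single genes rest on the model across genes. On the recovered reads, edgeR 4.0.16 called 728 genes higher and 411 lower and DESeq2 1.42.0 called 1072 and 776, with 1130 and 1236 of the 1270 calls shared. Other alternatives were scaling, pseudocount, filter, model and left-out mice and libraries. The fits were tested on simulated data. Python 3.11.15, pandas 2.3.3, scipy 1.17.1 and matplotlib 3.10.9 made the tables and plots, and promoter windows were RefSeq's (GRCm38.p6), available for 9937 of the tested genes.

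Named genes were the 12 with the smallest p in each direction changed the same way in 4 of 4 mice, the 4 largest by size, up to 4 called members per list and direction, fixed markers, and for age the 6 with the smallest p per direction. Genes outside the rule (*Ikzf2*, *Ikzf4*, *Entpd1*, *Prdm1*, *Fgl2*, *Il21*, *Ccr6*, *Itgav*, *Il5*, *Ccl3*, *Cxcl2*, *Csf1*, *Il17a*, *Il17f*, *Il2*, *Tnfrsf1b*, *Bub1b*, *Nr4a1*, *Cd40lg*, *Il17re*, *Tmem176b*, *Cxcr4*, *Ccrl2*, *Gzmk* and *Gzmm*), the interleukin-17 list and the motifs were chosen after their values were seen. The members, lists and the age comparison were chosen with earlier results of these data known. Some genes that the rule picked are not reported here.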

Additional observations from a re-analysis of the deposited data

Results flagged for a closer look

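In 32 of 316 groups of 4 libraries examined, 1 library lay far from the other 3 by Dixon's ratio at its 95% critical value, which chance alone passes in about 1 of 20 groups. The library of old aTreg replicate 2 accounted for 10 of them. The library of old aTreg replicate 2 stood above the other 3 for *Pdlim4* at 7010.2, *4833412C05Rik* at 168, *Ogdhl* at 147, *Il2* at 332, *Tnfsf14* at 1493 and *Mrpl23* at 1925 and below the other 3 for *Entpd1* at 376, *Gpr83* at 481, *Ebi3* at 439 and *Csf1* at 259. That of old aTreg replicate 1 stood above the other 3 for *Trgc1* at 4377, *St6galnac1* at 1711, *Chil3* at 27.3, *Gzma* at 34.5 and *Evl* at 4500.1 and below the other 3 for *Elavl2* at 13.6. That of old kTreg replicate 3 stood above the other 3 for *Csf1r* at 325, *Ebi3* at 1912, *Gzmc* at 199 and *Cdkn1c* at 177 and below the other 3 for *Il2ra* at 4588. That of old kTreg replicate 1 stood above the other 3 for *Ly6g5b* at 452 and below the other 3 for *Cd200r1* at 5139.7 and *Ikzf2* at 5675. That of old kTreg replicate 2 stood above the other 3 for *Kcnc2* at 26.1 and below the other 3 for *Cd3g* at 20028 and *Nkg7* at 1936. That of old aTreg replicate 3 stood above the other 3 for *Csf1r* at 15.7 and *Ccl6* at 24.4. That of old kTreg replicate 4 stood above the other 3 for *Elavl2* at 10.5 and below the other 3 for *Myadm* at 810.0. That of old aTreg replicate 4 stood above the other 3 for *Cx3cr1* at 26.03. 

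The difference between the subsets differed with age for *Igf2r*, with a difference of the log2 fold changes of 2.005 (adjusted p = 0.0499 in the limma model of 16 libraries). For *Id2*, *Appl2*, *Fbxo27* and *Rcbtb2* every old mouse had less in kTreg than in aTreg cells and every young mouse more. The log2 fold changes were −0.59 in old and 0.62 in young mice for *Id2*, −0.85 in old and 1.46 in young mice for *Appl2*, −1.03 in old and 1.79 in young mice for *Fbxo27* and −0.63 in old and 0.37 in young mice for *Rcbtb2*. The test of the difference gave adjusted p = 0.16 for *Id2*, 0.064 for *Appl2*, 0.064 for *Fbxo27* and 0.064 for *Rcbtb2* (limma), so none of them passed the threshold.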

How the results depend on the processing

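Over the 26 alternatives, the genes named for their call gave 3527 values, of which 2823 kept direction and call, 704 kept the direction but not the call and 0 turned. These genes were chosen by their call on the same libraries, so the kept direction is no separate support. Scaling by TMM, pseudocounts of 0.5 and 5, a filter at 50, edgeR, the fit without the replicate block (852 higher and 479 lower) and the fit with no fold threshold kept both counts within 1.5 times of 808 higher and 462 lower. DESeq2 called 776 lower (1072 higher, within 1.5 times). The counts were 236 higher and 153 lower with all 24 libraries and no replicate block, 291 and 165 with all 24 libraries and the block, 476 and 287 above a fold of 2, 397 and 234 with no filter on low values, 123 and 47 with limma without a trend, and 1426 and 937 at an unadjusted p below 0.05. With 1 mouse left out the counts ran from 287 to 709 higher and 208 to 433 lower. With 1 library left out and no block they ran from 360 to 1096 higher and 178 to 678 lower. Such fits gave 455 higher and 178 lower without old aTreg replicate 1, 389 and 196 without old kTreg replicate 2, 360 and 180 without old kTreg replicate 3, 300 lower without old kTreg replicate 4, and 1096 and 678 without old aTreg replicate 3. The cause of these moves was not tested. The single gene called for the age difference became 320 genes with DESeq2, 32 with all 24 libraries and the block, 16 with no replicate block, and 0 with no filter or a pseudocount of 0.5. With 1 mouse left out it ran from 0 to 153 genes, the highest without young mouse 4. *Cd44* and *Cdkn1a*, which were not called, turned in sign. *Cd44* was at −0.026 without old aTreg replicate 4 and no block and −0.000503 without old kTreg replicate 2 and no block, and at −0.050 to 0.073 with 1 mouse left out. *Cdkn1a* was at −0.032 without old aTreg replicate 4 and no block and −0.111 without old kTreg replicate 2 and no block. No other named gene turned, and no list test was run. With 4 mice a group, 1 mouse can end a call, and values near 0 rest on few reads.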

Other observations

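The young mice gave a second, separate set of 8 aTreg and kTreg libraries, and the medians of the lists can be set beside each other, without a test. The proliferation list had a median log2 fold change of 0.53 in old and 1.29 in young mice, the S100, annexin and galectin list one of 0.10 in old and 0.94 in young mice, and the resting and memory-like list one of −0.69 in old and −1.09 in young mice. The Treg identity list stood at 0.73 in old and 0.26 in young mice, and the ST2 and tissue Treg list at 0.68 in old and 0.93 in young mice. Complex I genes were at −0.44 in old and −0.06 in young mice, genes of complexes II to V at −0.38 in old and 0.00 in young mice, and cytosolic ribosomal proteins at −0.46 in old and −0.41 in young mice. Without mouse 2 the old medians were 0.66 for proliferation, 0.25 for S100, annexin and galectin, −0.71 for resting and memory-like, 0.42 for Treg identity, 0.45 for ST2 and tissue Treg, −0.22 for complex I, −0.19 for complexes II to V and −0.25 for cytosolic ribosomal genes. Within the old mice the median of the S100, annexin and galectin list was −0.10, −0.34, 0.37 and 0.30 in replicates 1 to 4. The median of all genes tested was 0.01 and −0.11. Among the young kTreg libraries the summed macrophage and monocyte markers ran from 857 to 45344, the highest in replicate 2, and the library of replicate 4 listed 4913 genes at 0. The part of these libraries in the young medians was not tested.

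The smaller marker lists gave few calls. Erythroid markers summed to 65.1 to 443 in aTreg and 279 to 744 in kTreg libraries, with 0 called higher and 0 lower of 4 tested. Platelet markers summed to 55.4 to 130.2 in aTreg and 101 to 457 in kTreg libraries, with 1 called higher and 0 lower of 3 tested. Basophil and mast cell markers summed to 157 to 374 in aTreg and 108 to 732 in kTreg libraries, with 1 called higher and 1 lower of 3 tested. Neutrophil markers summed to 5.21 to 272 in aTreg and 26.3 to 1486 in kTreg libraries, with 0 called higher and 0 lower of 3 tested. CD8 T cell markers summed to 171 to 268 in aTreg and 311 to 487 in kTreg libraries, with 0 called higher and 0 lower of 1 tested. A further set of 12 myeloid genes, put together from the leading genes after their values were seen, had log2 fold changes with a median of 3.80 in old and 0.57 in young mice.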
